A study of Mus musculus with 2 samples.

Results

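The KLF, SP and EGR proteins are zinc finger transcription factors that read related GC-rich DNA. The 31 genes described here are the 17 Klf genes, the 9 Sp genes, the 4 Egr genes and the Egr relative Wt1. They were taken by name from 21900 protein-coding genes of the mouse RefSeq annotation, and all 31 were found in it. The study placed a histone mark, β-hydroxybutyrylation of histone H3 at lysine 9 (H3K9bhb), in the genome of CD8+ memory T cells. The cells were C57BL/6 spleen cells of OT-I mice, which carry a transgenic T cell receptor for an ovalbumin peptide. Activation over 3 days used 200 ng/ml of the peptide with 10 ng/ml of interleukin-2, and culture in 10 ng/ml of interleukin-15 followed for 4 days. Both libraries, 1 ChIP library and 1 input DNA library, came from cells given β-hydroxybutyrate for 3 days. The dose is not stated in the labels.

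The labels give 70 M reads for each library, and the values used are the summits (highest points) of the peaks called in the ChIP library, 2315 summits of 2204 peaks. Untreated cells and a replicate ChIP were not analysed here. A peak is therefore a place called in treated cells, and no test across samples can be made. The list includes 17 summits on the mitochondrial genome, which has no histones, so a call alone does not show the mark. Each summit carries the authors' score, a −log10 p or q value, with a median of 5.04. No peak lay at any of the 8 CD8 T cell marker genes found in the annotation, such as Cd8a, Cd3e and Lck. The exact interval for them reaches 36.9%. The 16 markers of B, myeloid, CD4 T and NK cells had no peak either, with an exact interval reaching 20.6%. Peak calls do not measure expression, so they neither show nor question the labelled cell type.

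KLF and SP factors share a C-terminal array of C2H2 zinc fingers that binds GC boxes and CACCC sequences, and they raise or lower transcription through coactivators or corepressors. EGR factors bind a related GC-rich site and are induced within minutes to hours of receptor stimulation. In T cells KLF2 maintains quiescence and the homing receptors of naive and memory cells, KLF4 restrains proliferation, and EGR2 and EGR3 act downstream of the T cell receptor to limit activation.

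With a summit anywhere from 5 kb before to 5 kb past a gene taken as a peak of that gene, 12 of the 31 genes had a peak (38.7%, exact 95% interval 21.8 to 57.8), beside 11.4% of all protein-coding genes. The genes were Klf1, Klf3, Klf7, Klf11 and Klf16; Sp1, Sp2, Sp4, Sp6, Sp8 and Sp9; and Egr2. The Sp family had the highest count for its size, 6 of 9 (66.7%, 29.9 to 92.5). Klf genes had 5 of 17 (29.4%, 10.3 to 56.0), and Egr genes with Wt1 had 1 of 5 (20%, 0.505 to 71.6). These intervals treat genes as independent and cover counting error only. They overlap one another, and the difference between the families was not tested. The Klf interval and the Egr and Wt1 interval include the 11.4% of all protein-coding genes, while the Sp interval does not. This is no test, as the genes were chosen with earlier results of these data known. The Sp count also fell to 3 of 9 (33.3%) within 2 kb of gene ends, beside 9.40% of protein-coding genes. Klf2, the quiescence factor, had no peak, and neither had Klf4, Egr1 or Egr3.

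**Figure D1:**
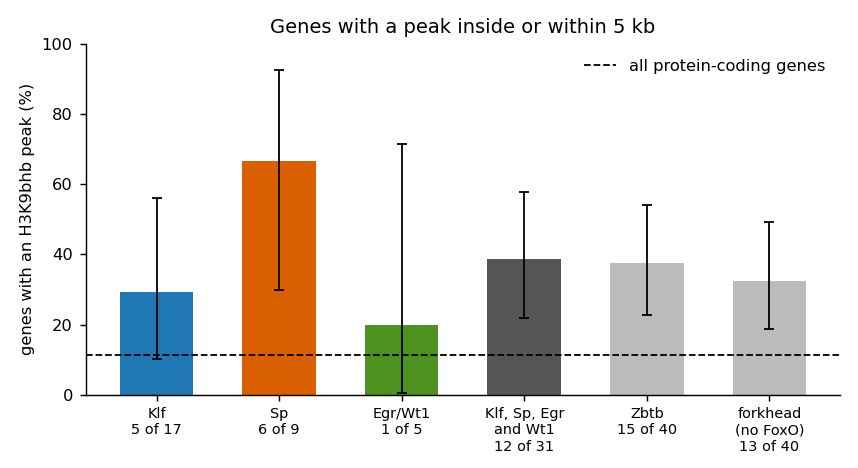
Share of genes with an H3K9bhb peak inside them or within 5 kb, in percent, for the Klf, Sp and Egr/Wt1 families, for the 31 genes together, and for Zbtb and forkhead genes. Error bars are exact 95% intervals and the dashed line is the 11.4% of all protein-coding genes; the Sp bar is the highest at 66.7%, and the intervals of the 3 families overlap.

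The sequences below are the start regions that the results turn on. The summit lay within the promoter window of 250 bases before to 50 bases after a RefSeq start at Klf11, Sp4, Sp9 and Egr2. Klf2 is shown beside them as the quiescence factor without a peak. Each runs from 250 bases before the start to 30 bases from it onward, 280 bases in all, 5′ to 3′ on the gene's own strand, from RefSeq on GRCm38.p6 (mm10). Capitals mark GC boxes, the letters GGGCGG on either strand (CCGCCC where read on the other strand), and overlapping boxes are counted separately. Klf11 is chr12:24651121-24651400 on the plus strand, and its summit is base 160. Sp4 is chr12:118301411-118301690 on the minus strand, and the nearer of its 2 summits is base 73. Sp9 is chr2:73271676-73271955 on the plus strand, with the summit at base 260. Egr2 is chr10:67537316-67537595 on the plus strand, the start nearest to its summit, which lies 37 bp downstream of that start and just past the stretch shown. Klf2 is chr8:72318812-72319091 on the plus strand.
Klf11: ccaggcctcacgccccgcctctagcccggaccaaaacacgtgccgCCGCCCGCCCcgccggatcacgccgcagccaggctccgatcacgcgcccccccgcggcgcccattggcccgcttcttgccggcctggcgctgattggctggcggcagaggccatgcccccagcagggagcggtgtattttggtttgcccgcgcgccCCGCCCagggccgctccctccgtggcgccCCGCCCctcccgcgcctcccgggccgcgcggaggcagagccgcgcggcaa
Sp4: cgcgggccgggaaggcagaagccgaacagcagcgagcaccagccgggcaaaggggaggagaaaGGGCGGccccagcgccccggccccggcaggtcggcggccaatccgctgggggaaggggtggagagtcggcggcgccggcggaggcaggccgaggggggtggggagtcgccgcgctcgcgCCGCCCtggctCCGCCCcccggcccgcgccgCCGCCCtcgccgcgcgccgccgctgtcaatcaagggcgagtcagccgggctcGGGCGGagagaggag
Sp9: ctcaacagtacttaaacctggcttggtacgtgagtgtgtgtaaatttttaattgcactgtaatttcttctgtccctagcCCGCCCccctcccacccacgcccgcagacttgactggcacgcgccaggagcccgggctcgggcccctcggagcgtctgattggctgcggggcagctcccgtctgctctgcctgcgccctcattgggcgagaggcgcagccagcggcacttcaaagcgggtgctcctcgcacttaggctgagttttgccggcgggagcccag
Egr2: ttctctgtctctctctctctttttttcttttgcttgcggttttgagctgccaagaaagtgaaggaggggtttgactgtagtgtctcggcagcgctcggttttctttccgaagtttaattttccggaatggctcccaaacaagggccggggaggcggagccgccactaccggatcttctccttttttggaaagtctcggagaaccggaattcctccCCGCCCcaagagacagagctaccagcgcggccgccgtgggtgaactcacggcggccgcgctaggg
Klf2: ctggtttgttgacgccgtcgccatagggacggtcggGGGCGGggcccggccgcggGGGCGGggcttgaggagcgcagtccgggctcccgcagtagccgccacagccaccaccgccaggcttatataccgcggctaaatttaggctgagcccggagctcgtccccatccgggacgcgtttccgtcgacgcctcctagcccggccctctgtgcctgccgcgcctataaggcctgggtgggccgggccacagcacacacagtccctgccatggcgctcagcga
All 5 hold a GC box. Sp4 holds 5 of them at 79.3% G+C and Klf11 holds 4 at 77.5% G+C, while Sp9 (62.5% G+C) and Egr2 (56.1%) hold 1 each. The Klf2 stretch, far from any summit, holds 2 boxes at 70.4% G+C. A match of letters is a description and does not show that a factor binds there.

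Sp1 to Sp4 are the members of the family with glutamine-rich activation domains, and 3 of these 4 genes had a peak. With so few genes the exact interval is wide (19.4 to 99.4%), beside 11.4% of all protein-coding genes. Sp4, a factor best known from neurons, lies on chromosome 12 from 118231686 to 118301440 and was the one gene of the 31 with 2 peaks. Its summits lay 178 and 756 bp upstream of the start, at 118301618 and 118302196, with scores of 7.01 and 10.5. The farther summit was the highest-scoring of all 13 summits at these genes, and 6.18% of all summits scored as high or higher. Sp2, on chromosome 11 from 96953332 to 96982959, has 3 starts in the RefSeq table. Its summit at 96977535 lay 153 bp downstream of the middle start and 5424 bp from the nearest end of the gene, and scored 5.04. Sp1, the ubiquitous GC box factor, lies on chromosome 15 from 102406316 to 102436404, and its summit at 102406666 was 350 bp inside the gene. The Sp1 score was low, 2.51, a value shared by 109 summits, and 90.5% of summits scored as high or higher. Sp3, the other widely expressed member, had no peak. Its closest summit was 234.0 kb away, beside an end of Ola1.

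Among Sp5 to Sp9, factors known from the embryo, tooth, bone, limb and brain, 3 of 5 genes had a peak. The exact interval is again wide (14.7 to 94.7%), beside 11.4% of all protein-coding genes. Sp9 (chromosome 2, 73271926 to 73275771) had a summit at 73271935, 9 bp downstream of its start, with a score of 5.11. Sp6 (chromosome 11, 97013569 to 97024739), a tooth and skin factor, had a summit at 97022085, within the gene body, 2654 bp from the nearest end, with a score of 4.26. Sp8 (chromosome 12, 118846288 to 118852578), a factor of limb outgrowth, had a summit at 118848778, 1219 bp downstream of the nearest of its 3 starts, with a score of 2.51. Only the Sp9 summit, then, lay within 1 kb of a known start in this subgroup, and Sp6 has no entry in the promoter table. Sp7, the bone factor osterix, missed the distance rule. The summit closest to it lay 9.9 kb away at 102376977 and scored 7.89, and no other protein-coding gene had an end nearer to that summit. Sp5, a target of Wnt signalling, was 578.3 kb from its closest summit.

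Several Sp genes lie in pairs. The gap between Sp2 and Sp6 on chromosome 11 was 30.6 kb with 0 summits in it, and each gene held its own. Between Sp1 and Sp7 on chromosome 15 the gap was 39.3 kb and held 1 summit, the one nearest to Sp7. Sp4 and Sp8 on chromosome 12 are 544.8 kb apart. At each of the 6 Sp genes with a peak, the gene's own end was the nearest protein-coding end to the summit, and no other protein-coding gene was within 5 kb of it.

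**Figure D2:**
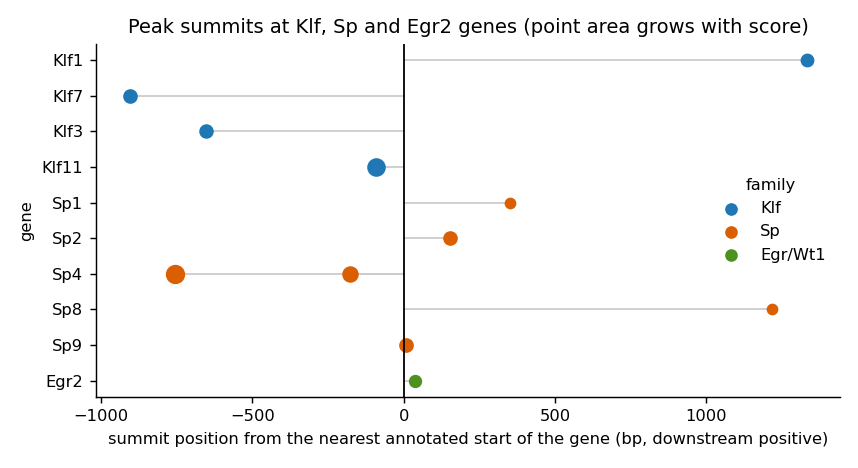
Position of each summit in bp from the nearest annotated start of its own gene (downstream positive), for the 10 genes with a peak whose starts are in the promoter table; point area grows with the score. Summits at Sp9, Egr2, Klf11, Sp2 and the nearer one at Sp4 lie within 200 bp of a start, while those of Klf1 and Sp8 lie over 1 kb downstream.

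Klf genes with a peak came from each of the 3 classes defined by cofactor binding, and the peaks differed in position. The classes are textbook ones and were applied after the values were seen. Of the 6 genes of the activator class (Klf1, Klf2, Klf4, Klf5, Klf6 and Klf7), 2 had a peak. The exact interval of this share (4.33 to 77.7%) includes the 11.4% of all protein-coding genes. Klf1, the erythroid factor that activates adult β-globin, lies on chromosome 8 from 84901982 to 84905291. Its summit at 84903314 was 1332 bp downstream of the start, inside the gene, with a score of 4.26. Klf7, known from neurons and blood progenitors, spans 64029448 to 64122345 on chromosome 1. Its summit at 64122294 was 51 bp inside the higher-coordinate end of the gene, which is its 5′ end, as Klf7 is on the minus strand. The same summit was 905 bp upstream of the start in the promoter table, with a score of 5.04. A long non-coding RNA gene, Gm35880, was within 2 kb of the same summit.

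In the class that recruits the corepressor CtBP (Klf3, Klf8 and Klf12), Klf3 had a peak, 1 of 3 genes (exact interval 0.84 to 90.6%). Klf3, a repressor widely expressed in blood cells, lies on chromosome 5 from 64803521 to 64832901, and its summit at 64802868 was 653 bp upstream of the start. The score was 4.93. That summit was nearer to an end of the predicted gene Gm38457 (498 bp), so the peak cannot be assigned to Klf3 alone. In the class that binds the corepressor SIN3A (Klf9, Klf10, Klf11, Klf13, Klf14 and Klf16), Klf11 and Klf16 had a peak. That is 2 of 6 genes (4.33 to 77.7%). The intervals of both corepressor classes include the 11.4% of all protein-coding genes. Klf11, a factor induced by TGF-β, lies on chromosome 12 from 24651371 to 24662782. Its summit at 24651280 was 91 bp upstream of the start and scored 9.54, the highest score among the Klf genes, and 8.86% of all summits scored as high or higher. Klf16, a repressor of the same class, had the lowest score of the 13 summits, 2.49. Its summit at 80576955 on chromosome 10 was 341 bp inside the higher-coordinate end of the gene (80567121 to 80577296). The strand of Klf16 is not in the tables used here, so that end cannot be called the start. The long non-coding RNA gene Gm26710 was within 2 kb of that summit, as Gm11532 was of the Sp6 summit. Klf15 and Klf17, outside these classes, had no peak.

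**Figure D3:**
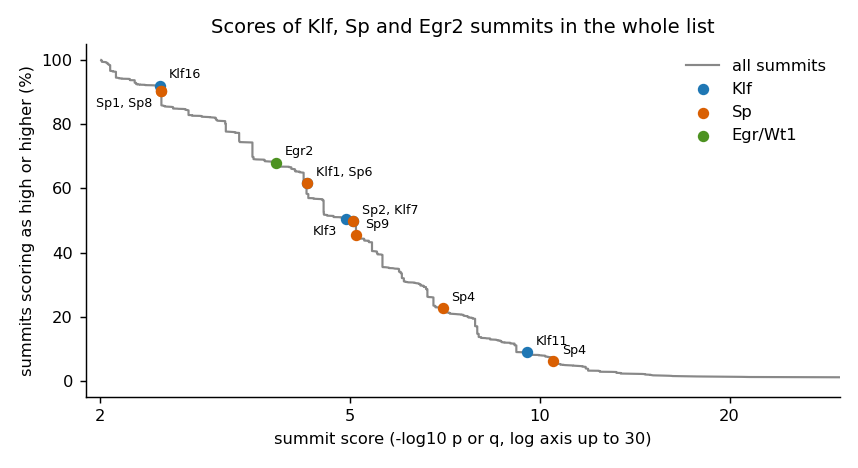
Scores (−log10 p or q, log axis) of the 13 summits at Klf, Sp and Egr2 genes, placed on the curve of all 2315 summits, whose vertical axis is the percent of summits scoring as high or higher. The summits run from 2.49 (Klf16) to 10.5 (Sp4) and centre on the middle of the list; points with equal scores (Klf1 with Sp6, Klf7 with Sp2, Sp1 with Sp8) lie on top of each other.

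Klf2 and Klf4, the Klf genes linked to T cell quiescence, had no nearby summit. Klf2 (chromosome 8, 72319062 to 72321654) was 99.7 kb from its closest summit. That summit, at 72421336, scored 11.7 and was 240 bp from an end of Eps15l1, an endocytic adaptor gene. Klf4 (chromosome 4) was 1414.9 kb from its closest summit. Klf6 (chromosome 13), an early-response factor, was 2250.6 kb from its own closest summit. Klf13, which activates late chemokine transcription in T cells, was 348.7 kb away, and Klf10, a TGF-β-induced factor of regulatory T cells, was 170.2 kb away. The glucocorticoid-induced Klf9 was 105.5 kb away and Klf14, a regulator of fat tissue, 257.7 kb. For Klf15, which promotes gluconeogenesis, the distance was 665.1 kb. Klf5, Klf12, Klf17 and the X-linked Klf8 were over 1 Mb from a summit (2340.6, 1368.2, 1429.7 and 5856.8 kb). Klf12 is the longest of the 31 genes, and its span of 419711 bp held no summit.

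Of the Egr genes, Egr2 alone had a peak. Egr2 (chromosome 10, 67534469 to 67542188) has 5 starts in the promoter table, and the summit at 67537603 lay 37 bp downstream of the second in the direction of transcription. The score was 3.81, below the median of the list, and 68.0% of summits scored as high or higher. The long non-coding RNA gene Gm32255 lay within 2 kb of it. Egr1, the immediate early factor of the family, was 66.9 kb from its closest summit, which was near an end of Etf1. Egr3, which overlaps EGR2 in function in T cells, was 76.8 kb away, Egr4 373.5 kb, and the kidney factor Wt1 109.7 kb. For comparison, the 19 genes without a peak were a median of 349.0 kb from a summit, and the 19411 protein-coding genes without a peak were a median of 289.0 kb from one.

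**Figure D4:**
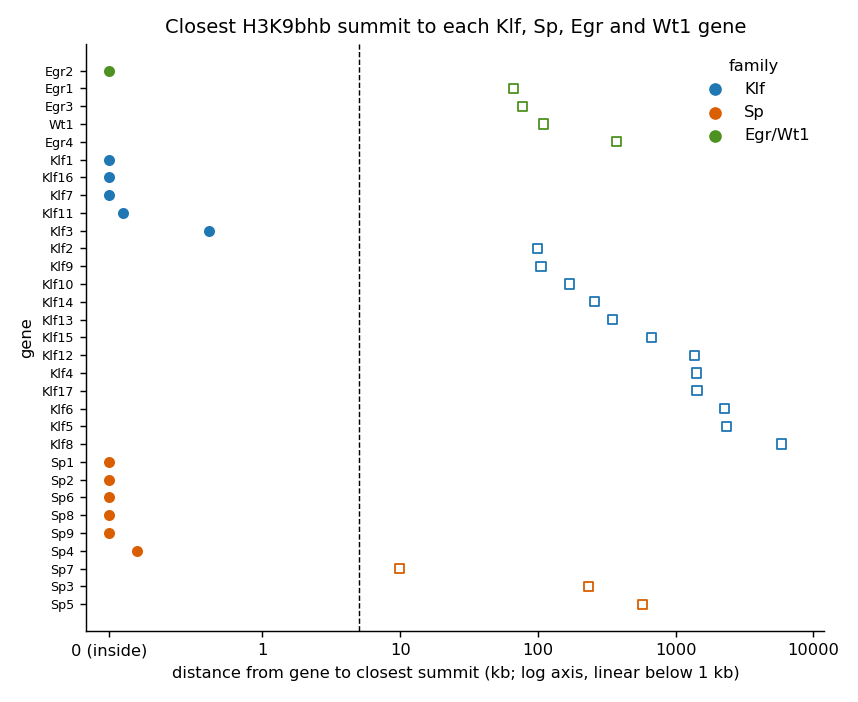
Distance in kb from each of the 31 genes to its closest summit (log axis, linear below 1 kb), by family; filled circles are genes with a peak and open squares genes without, and the dashed line is the 5 kb limit. Sp7, at 9.9 kb, is the gene just outside the limit and Klf3, at 653 bp, the farthest inside it, so no gene lay near the limit itself.

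Most genes with a peak had a summit near a start, both here and over all genes. Of the 22 genes whose starts are in the promoter table, 10 (45.5%) had a summit within 2 kb of a start, beside 9.58% of the 17492 protein-coding genes in that table. Of those 17492 genes, 1676 had such a summit, while 2032 had a peak by the 5 kb rule. The 9 genes not in the promoter table are Klf5, Klf10, Klf14, Klf16, Sp6, Sp7, Egr1, Egr3 and Wt1, of which Klf16 and Sp6 had a peak. The scores were those of ordinary peaks: the median of the 13 summits was 4.93, beside 5.04 for all summits. Counted with summits at or above the median score alone, 5 of the 31 genes (16.1%) had a peak, beside 5.82% of all protein-coding genes. They were Klf7, Klf11, Sp2, Sp4 and Sp9. Klf7 and Sp2 passed narrowly, with a score shared by 24 summits that rounds to 5.04 as the median does. Klf3, at 4.93, fell just below it. The Sp count also depended on where in the gene a summit may lie. With summits within 2 kb of a gene's outer ends alone, 8 of the 31 genes counted (25.8%), beside 9.40% of protein-coding genes. This setting drops the summits of Sp2, Sp6, Sp8 and Egr2. It leaves 3 of 9 Sp genes (33.3%), close to the 5 of 17 Klf genes (29.4%), and 0 of the 5 Egr and Wt1 genes. With no flank 9 of the 31 genes counted, beside 8.71% of protein-coding genes, and with 10 kb flanks 13 did, beside 13.0%. When a summit counted only for the gene with the nearest end, 11 of the 31 counted, beside 9.26%.

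Promoter base composition moved with peaks over all genes. Taking the first start of each gene, the 2032 genes with a peak had a median of 65.0% G+C in the promoter window of 300 bases, beside 55.0% for the 15460 genes without one. In the quartile of genes with the highest G+C (64.7% or more) 24.7% had a peak, and in the quartile with the lowest (up to 47.7%) 2.72% did. The Klf, Sp and Egr genes had GC-rich promoters: 10 of the 22 fell in the highest quartile, and 4 of these 10 (40.0%) had a peak, namely Klf3, Klf11, Sp4 and Egr2. The other 6 of that quartile, Klf2, Klf4, Klf13, Klf15, Sp3 and Egr4, had none. In the remaining quartiles, from the lowest G+C upward, 1 of 3, 2 of 3 and 3 of 6 of these genes had a peak. The shares of all genes there were 2.72%, 6.17% and 13.3%. Within the families G+C did not separate the genes, with a median of 62.7% for the 10 with a peak (range 43.0 to 78.7) and 65.0% for the 12 without (range 45.0 to 74.3). Klf1 (51.3%), Sp2 (53.3%) and Sp8 (43.0%) had a peak with a first-start promoter below the median of all genes, 56.3%. At Sp2, Sp8 and Egr2 the start nearest to the summit was another one. That start had 59.7% G+C at Sp2, above the median of all genes, and 53.0% at Sp8, still below it. For Egr2 the start nearest to the summit had 56.7% G+C, below the highest quartile, while the first start had 72.0%. What part base composition has in the peak count of the families was not tested.

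**Figure D5:**
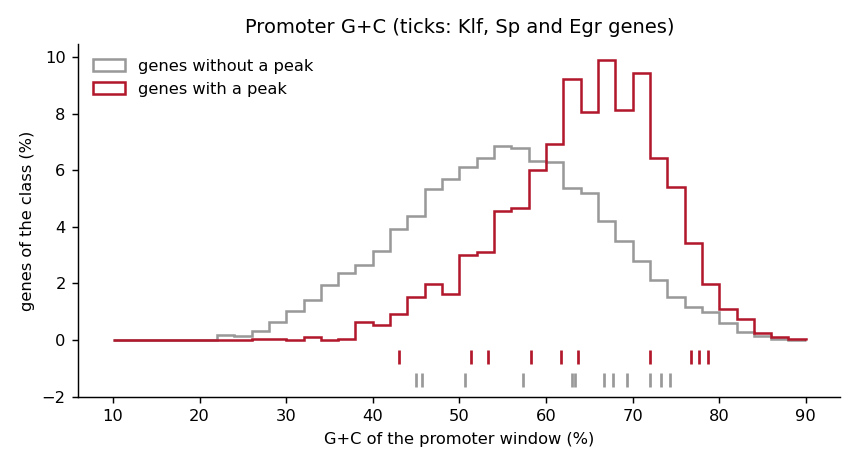
G+C content (%) of the promoter window at the first start of each gene, as the percent of genes of the class, for protein-coding genes with (red) and without (grey) a peak; ticks under the histograms mark the 10 Klf, Sp and Egr genes with a peak (red) and the 12 without (grey). The red histogram lies to the right of the grey one, while the red and grey ticks span much the same range.

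The binding letters of these factors were looked up in the same windows on both strands. A GC box (GGGCGG) was present at 15 of the 22 Klf, Sp and Egr genes (68.2%), beside 46.3% of all genes, 73.2% of genes with a peak and 42.8% of those without. Among the 22, it was present at 7 of the 10 with a peak and 8 of the 12 without. The promoter of Klf3 held 6 GC boxes and 5 CACCC sequences, the most of either among these genes. CACCC, the core of the KLF site, was present at 18 of the 22 (81.8%), beside 58.5% of all genes. The letters GCGTGGGCG of the EGR site were at 0 of the 22 and at 0.835% of all genes. These motifs are rich in G and C, as are the promoters of genes with a peak, and the part of base composition in these shares was not tested.

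Genes that act with these factors were counted in the same way. Of 26 genes of T cell quiescence and trafficking linked to KLF2, 5 had a peak (19.2%, 6.55 to 39.4), an interval that includes the 11.4% of all protein-coding genes. They were Ets1 (score 8.0), a T cell ETS factor, Foxo3 (6.04) and Foxo1 (3.17), forkhead factors of which FOXO1 induces Klf2, Foxp1 (5.63), a keeper of naive T cell quiescence, and Elf4 (4.03), an ETS factor that induces Klf4. The Ets1 summit was inside the gene, 59944 bp from its nearest end. At Foxo3, Foxo1, Foxp1 and Elf4 a summit lay within 2 kb of a start. The KLF2 target S1pr1, with Ccr7 and Il7r, had no peak. In the MEK5-ERK5-MEF2 pathway that induces Klf2 and Klf4, 3 of 8 genes had a peak (37.5%, 8.52 to 75.5), and this interval also includes 11.4%. These were Map2k5 (10.8), which encodes MEK5, Mef2b (4.54), a MEF2 factor, and Map3k2 (2.12), the kinase upstream of MEK5. The Map2k5 summit lay 97 bp from a start, while at Mef2b none came closer than 5839 bp.

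Of 28 genes that induce Egr genes or work with their products, 6 had a peak (21.4%, 8.30 to 41.0), with the 11.4% of all protein-coding genes again inside the interval. Nr4a3 (11.6), a receptor-induced nuclear receptor, had the highest score, with a summit 1956 bp from a start. Nab2 (4.29), the corepressor that binds EGR proteins, had a summit 58 bp from its start. Nfatc2 (7.95) and Nfatc3 (5.11), calcium-regulated factors that induce Egr2 and Egr3, also had a peak. So did Fosl2 (5.63), an AP-1 subunit, and Dgkz (2.27), a diacylglycerol kinase that damps receptor signalling. At Nfatc3 and Fosl2 a summit lay 188 and 338 bp from a start. At Nfatc2 and Dgkz none came closer to a start than 19068 and 12321 bp.

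Cofactors and regulators of KLF and SP proteins had a peak at 7 of 21 genes (33.3%, 14.6 to 57.0), beside 11.4% of all protein-coding genes. Both SIN3 scaffolds were among them, Sin3b (5.26) and Sin3a (3.17), with summits 163 and 288 bp from a start. Runx1 (9.18), a blood cell factor, Crebbp (6.83), an acetyltransferase, Taf4 (4.22), a TFIID subunit bound by SP1, and Hdac2 (4.09), a SIN3 deacetylase, followed. The CtBP genes Ctbp1 and Ctbp2 had none. Of 27 other zinc finger factors with related sites or fingers, 8 had a peak (29.6%, 13.8 to 50.2), beside the same 11.4%. The 6 with the highest scores were Zbtb4 (6.63), Hic2 (5.52), Zbtb7a (5.12), Ctcf (3.80), Hic1 (3.54) and Ikzf4 (3.34); the Ikzf4 summit was nearer to an end of Suox.

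Other transcription factor families had shares like that of the 31 genes. Of the 40 Zbtb genes found by name 15 had a peak (37.5%, 22.7 to 54.2), and of the 40 forkhead genes other than FoxO 13 did (32.5%, 18.6 to 49.1). Their intervals overlap that of the Klf, Sp and Egr genes, and no difference between these families was tested.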

How the data were processed

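Per the labels' protocols, 4 µg of antibody to H3K9bhb was used for the ChIP and libraries were read as paired ends of 150 bp. The submitters' processing notes name build mm10, Bowtie2 2.3.5, MACS2 2.1.2, Trimmomatic 0.39 and FastQC 0.11.8. Peak caller settings, use of the input, and removal of duplicates or blacklisted regions are not stated there. The deposited file lists summits of 1 bp with the authors' −log10 p or q value (which of the 2 is not stated), here called the score. Read depth per peak is unknown.

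Summits were set against gene spans of RefSeq GRCm38.p6, and starts and strands were taken from RefSeq promoter windows of the same assembly. A gene had a peak when any summit lay inside it or within 5 kb. Every one of the 31 genes is named; from each of the 5 lists of related genes, up to 6 with a peak are named, by score. Some list genes enter the counts and are not named here. The members and lists were chosen with earlier results of these data known. With 1 ChIP library no test was made; exact (Clopper-Pearson) 95% intervals are given. Protein features in the design were not analysed here. The counting was tested on simulated summits at 200 genes. The tools were scipy 1.17.1, matplotlib 3.10.9, pandas 2.3.3 and numpy 2.4.6 in Python 3.11.15. Alternatives varied the flank, score, gene assignment and start window.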

Additional observations from a re-analysis of the deposited data

How the results depend on the processing

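The counts of genes with a peak changed most with the score limit. With summits at or above the median score they were 5 of the 31 genes, 2 of 17 Klf genes, 3 of 9 Sp genes and 0 of the 5 Egr and Wt1 genes. The share of all protein-coding genes fell as well, from 11.4% to 5.82%. Within 2 kb of gene ends alone they were 3 Sp genes and 0 Egr and Wt1 genes, and with no flank 3 Klf genes, since Klf3 and Klf11 have their summits outside the gene. With 10 kb flanks Sp7 was added (13 genes), and counting only the gene with the nearest end removed Klf3 (11 genes). The matching shares of protein-coding genes were 9.40% within 2 kb of gene ends and 8.71% with no flank. They were 13.0% with 10 kb flanks and 9.26% by nearest end. Under the main rule the background was 6.38% over all annotated genes, beside the 11.4% of protein-coding genes. The other alternatives moved no count by over 1.5 times. No paired analysis was possible because there is 1 ChIP library. Scores are coarse and depth per peak is unknown, so genes without a peak may lie below the calling limit.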
